A study of Mus musculus with 11 samples.

Results

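Type I interferon response genes, which cells switch on when they sense type I interferon, were followed in CD4 T cells of the inflamed lacrimal gland. The list held 42 genes chosen by symbol, with earlier results of these data known. Shares of all genes are therefore set beside its counts as a description only. Of the 42 genes, 38 had a probe set with exactly 1 gene symbol, among 17097 genes measured. Oas1a, Bst2, Isg15 and Ifi44 had no probe set under their symbol. Each gene was read from its brightest probe set over the 9 gland arrays, and 12 of the 38 had more than 1. A gene counted as above background on an array when its signal passed the highest nonspecific control probe set there, a limit that ran from 0.945 to 1.70 over the arrays. By that measure 37 of the 38 genes were above background on 3 or more gland arrays, and Eif2ak2 was above it on LG_eTreg 1 and 2 alone.

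RNA came from male NOD mice of 16 weeks, a strain with spontaneous autoimmunity that serves as a model of Sjögren's disease, and no group carried a treatment, transgene or deletion per the labels. LG_naive were live CD4 T cells of the gland without PD-1 and ICOS, while LG_eTconv (effector conventional) and LG_eTreg (effector regulatory) T cells were both high for PD-1 and ICOS, with 3 arrays in each group. The study text gives both effector subsets the same gate, low for CD73 and CD200, so the text does not state which marker set them apart. Spl_CD4 and Spl_CD8 were total CD4 and CD8 T cells of the spleen, with 1 array each. The labels do not say whether replicate arrays came from separate mice or from pools, so the p-values rest on a spread between arrays that may be technical only. Values are log2 signals, and since the arrays measured sorted populations in bulk, fewer cells of a type and less RNA per cell cannot be told apart. The T cell label held: 8 of 8 measured T cell markers were above background on all 11 arrays, and Cd4 stood at 8.43, 8.97 and 8.43 in the 3 gland groups and at 8.49 on Spl_CD4 against 2.47 on Spl_CD8. The 18S ribosomal control was highest on LG_eTreg 3 (6.69) and LG_naive 1 (6.63), against 4.34 to 5.68 on the others, and the gap between 3′ and 5′ actin probes was widest on LG_eTconv 1 (3.35 against 1.53 to 2.86).

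Type I interferons, the interferon alpha and beta proteins, bind a receptor made of the chains encoded by Ifnar1 and Ifnar2. The kinases JAK1 and TYK2 then phosphorylate transcription factors such as STAT2, which joins IRF9 and binds a DNA element called the interferon-stimulated response element in the promoters of target genes. The products of those genes block viral translation and replication, sense foreign nucleic acid and, through IRF7 and USP18, raise or dampen further interferon signalling. Many of the same genes also respond to interferon gamma, and raised interferon response genes are a known feature of blood and glands in Sjögren's disease.

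The response element was searched in the RefSeq promoters of the members to show where its letters lie, and a match is a description and no evidence of binding. The motif was GAAA, any 2 bases and GAAA on either strand, whose reverse complement reads TTTC, any 2 bases and TTTC, and matches may overlap. In windows from 250 bases before to 50 bases after an annotated start, 11 of the 27 measured members in the table held it (40.7%), and 14 of the 31 members with or without a probe set (45.2%). The motif was in 1079 of all 27025 genes listed there (3.99%). The gamma-activated site, TTC, any 3 bases and GAA, was in 4 of the 27 (14.8%) against 9.55% of all genes. The stretches below run from 160 bases before the start to 10 bases into the transcript, on the gene's own strand, in build GRCm38.p6, the C57BL/6J reference and not the NOD genome. They are examples of genes that carry the contrasts described next. Ifit1, Ifit3, Oas1g and Rsad2 were higher in LG_eTreg than in both other subsets, and Ifit1bl1 and Oasl1 were lower in LG_eTconv than in both. Capitals mark the response element.
Ifit1, chr19:34640729-34640898, strand +: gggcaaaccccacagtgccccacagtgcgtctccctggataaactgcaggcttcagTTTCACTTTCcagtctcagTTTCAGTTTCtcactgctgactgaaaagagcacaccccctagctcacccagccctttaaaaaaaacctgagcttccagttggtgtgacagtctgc
Ifit3, chr19:34583369-34583538, strand +: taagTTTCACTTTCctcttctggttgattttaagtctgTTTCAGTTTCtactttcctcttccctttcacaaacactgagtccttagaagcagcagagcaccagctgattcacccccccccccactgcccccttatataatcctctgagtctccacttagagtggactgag
Oas1g, chr5:120887604-120887773, strand -: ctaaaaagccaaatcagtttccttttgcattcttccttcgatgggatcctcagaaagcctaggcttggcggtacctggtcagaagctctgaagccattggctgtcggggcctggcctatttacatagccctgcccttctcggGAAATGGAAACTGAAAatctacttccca
Rsad2, chr12:26456443-26456612, strand -: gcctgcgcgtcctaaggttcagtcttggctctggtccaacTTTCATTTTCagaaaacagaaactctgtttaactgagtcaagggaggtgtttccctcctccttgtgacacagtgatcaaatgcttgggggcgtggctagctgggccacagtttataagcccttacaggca
Ifit1bl1, chr19:34601959-34602128, strand -: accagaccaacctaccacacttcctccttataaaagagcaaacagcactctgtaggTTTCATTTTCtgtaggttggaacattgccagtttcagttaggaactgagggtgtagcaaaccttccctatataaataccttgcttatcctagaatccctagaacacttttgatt
Oasl1, chr5:114923080-114923249, strand +: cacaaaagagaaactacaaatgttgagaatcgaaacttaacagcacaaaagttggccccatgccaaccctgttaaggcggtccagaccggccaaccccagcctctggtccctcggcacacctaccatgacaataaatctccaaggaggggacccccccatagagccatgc
The first matching base lay 104 and 85 bases before the start in Ifit1, 156 and 122 in Ifit3, 18 and 12 in Oas1g, where the matches overlap, and 120 in Rsad2. In Ifit1bl1 it lay 104 bases before the start shown, and a further annotated start has the motif 23 bases before it. Oasl1 and Ifit2 held no match in their windows. Neither did Isg20, Cmpk2 and Xaf1, not shown, which were also called higher in LG_eTreg than in both other subsets. A missing match says only that these letters are not there.

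Most interferon response genes were higher in LG_eTreg than in LG_eTconv. By limma over all genes, 24 of the 38 were higher and 0 were lower at an adjusted p under 0.05, where 2.94% of all 17097 genes were higher and 2.76% lower. All 38 differences were positive, so 0 were lower at an unadjusted p under 0.05 as well, where 32 were higher. Of all 17097 genes, 1507 were higher and 1263 lower at that unadjusted p. The median difference was 1.05 over the members and 0.01 over all genes. Of the 24 called members 18 differed at least 2-fold, as did 320 of the 502 higher among all genes. Ifit1bl1, a relative of the IFIT proteins, led with a difference of 4.01, followed, among genes above background on all gland arrays, by the oligoadenylate synthetase gene Oas2 (2.68) and by Ifit3 (2.37). Oasl1, a relative of Oas2, differed by 2.73, and by 2.10 with values below background set to the highest array limit, since 2 of its 3 LG_eTconv arrays lay below background. In the same comparison 2 of 8 measured gland epithelium markers were also higher, and their part was not tested. Of the 24 calls, 12 held under all 19 other settings tried: Ifit1, Ifit2, Ifit3, Ifit1bl1, Samd9l, Oas2, Oasl1, Rsad2, Cmpk2, Rtp4, Usp18 and Ifi204. With LG_naive 1, LG_eTconv 1 and LG_eTreg 3 left out together, the arrays that stood apart in their controls, 16 members were called higher, and among the calls that ended were Mx1 (adjusted p = 0.0549), Mx2 (0.051) and Oas1g (0.132). Several calls also ended with a single array left out. Irf7 was not called without LG_naive 2 or 3, LG_eTconv 1, 2 or 3 or LG_eTreg 1, 2 or 3 (adjusted p 0.0517 to 0.148). Parp14 was not called without LG_naive 2 or 3, LG_eTconv 1 or 2 or LG_eTreg 1, 2 or 3 (adjusted p 0.0518 to 0.108). Dtx3l lost its call without LG_naive 3, LG_eTconv 1, 2 or 3 or LG_eTreg 1 or 2 (adjusted p 0.0513 to 0.093), and Ddx58 without LG_naive 2 or 3, LG_eTconv 1 or 2 or LG_eTreg 1 or 3 (adjusted p 0.0509 to 0.0916). Stat2 fell short without LG_eTconv 1 or 2 or LG_eTreg 2 or 3 (adjusted p 0.0728 to 0.0844), Isg20 without LG_eTconv 2 or 3 or LG_eTreg 1 or 2 (adjusted p 0.0561 to 0.0765) and Trim30a without LG_eTconv 3 (adjusted p = 0.054). Eif2ak2 was called higher without LG_eTreg 3 (adjusted p = 0.0175) and Zbp1 without LG_eTreg 1 (0.0493). With the mean of a gene's probe sets, Dhx58 (adjusted p = 0.0574) and Xaf1 (0.0554) were not called.

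**Figure D1:**
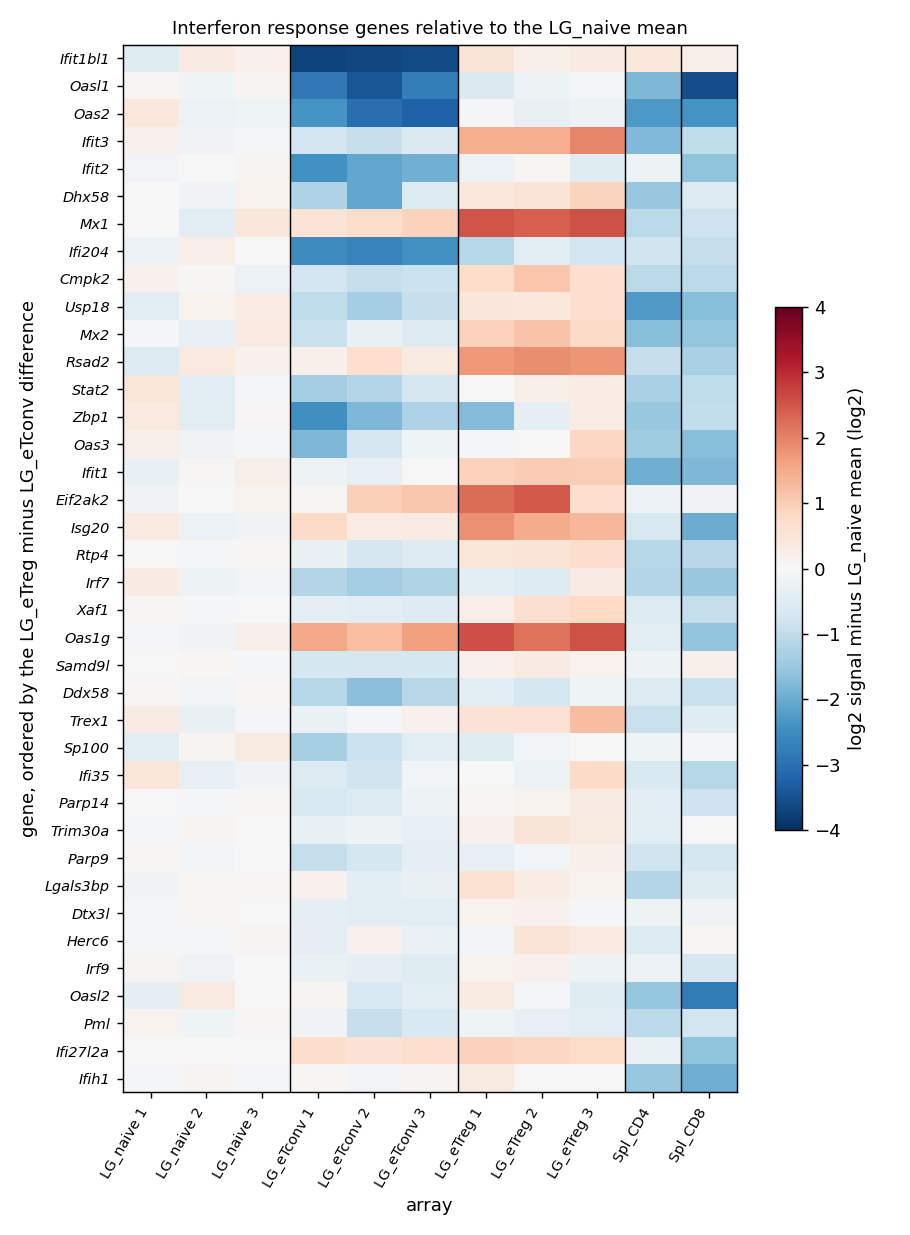
Signal of the 38 interferon response genes on each of the 11 arrays, as the log2 difference from the mean of the 3 LG_naive arrays (red higher, blue lower), with genes in order of the LG_eTreg minus LG_eTconv difference. The 3 LG_eTconv columns are mostly blue, with higher means than LG_naive for Oas1g, Mx1, Eif2ak2, Ifi27l2a, Isg20, Rsad2 and Ifih1, while the LG_eTreg columns are reddest for Mx1, Oas1g, Eif2ak2 (near the background limit), Rsad2, Ifit3 and Isg20.

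Against LG_naive the effector conventional cells had lower interferon response genes. In LG_eTconv 17 of the 38 were lower and 2 higher, where 7.02% of all genes were lower and 6.45% higher. The median difference was −0.53 over the members, with a range from −3.64 to 1.46, and −0.03 over all genes. Of the 17 lower genes 11 differed at least 2-fold, as did 712 of the 1200 lower among all genes. The 11 included Ifit1bl1 (12.5-fold), Oasl1, Oas2, Ifi204 and Ifit2 (4.40-fold). The 2 higher genes were Oas1g, which encodes an oligoadenylate synthetase, and Ifi27l2a, a small interferon-induced membrane protein gene. In the same comparison 8 of 9 measured plasmacytoid dendritic cell markers were lower and 1 higher, 7 of 10 conventional dendritic cell markers were lower, and their part was not tested. Under all 19 other settings 11 of the 19 calls held: Ifit2, Ifit1bl1, Samd9l, Oas1g, Oas2, Oasl1, Usp18, Irf7, Ddx58, Ifi204 and Ifi27l2a. The count of lower genes dropped to 10 without LG_naive 3 and to 10 without LG_eTconv 2. Parp9 was not called without LG_naive 1, 2 or 3, LG_eTconv 1 or 2 or LG_eTreg 2 (adjusted p 0.0657 to 0.128), and Zbp1 without LG_naive 1, 2 or 3, LG_eTconv 1, 2 or 3 or LG_eTreg 2 (adjusted p 0.0547 to 0.156). Dhx58 lost its call without LG_naive 1, 2 or 3, LG_eTconv 1 or 2 or LG_eTreg 1 or 2 (adjusted p 0.0564 to 0.118), and Dtx3l without LG_naive 2 or 3 or LG_eTconv 1, 2 or 3 (adjusted p 0.056 to 0.104). Rtp4 fell short without LG_naive 1, 2 or 3 or LG_eTconv 2 or 3 (adjusted p 0.0669 to 0.0918), Stat2 without LG_naive 1 or 3 or LG_eTconv 1 or 2 (adjusted p 0.0519 to 0.0839) and Ifit3 without LG_naive 1 or 3 or LG_eTconv 1 or 2 (adjusted p 0.057 to 0.0773). Cmpk2 was not called with the mean of its probe sets (adjusted p = 0.121). In the other direction, Mx1 was called higher without LG_naive 3 (adjusted p = 0.0119) and under 5 further settings. Parp14 was called lower without LG_eTconv 3 (adjusted p = 0.019), Pml without LG_eTconv 1 (0.0195), Xaf1 without LG_eTreg 1 (0.0298) and Sp100 without LG_naive 1 (0.0333) or LG_eTconv 3 (just under 0.05).

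In LG_eTreg against LG_naive, 12 of the 38 genes were higher and 1 was lower, where 6.20% of all genes were higher and 5.47% lower. The median difference was 0.26, with a range from −0.79 to 2.49, and −0.02 over all genes. Mx1 and Oas1g led, by 5.61-fold and 5.38-fold, and Rsad2, Ifit3 and Isg20 were also at least 2-fold higher. Eif2ak2, the gene of the kinase PKR, was below background on all 3 LG_naive arrays and is given as at least 1.15-fold higher. Ifi204, a DNA-binding protein of the p200 family, was the lower gene, and its call ended without LG_naive 2 or 3, LG_eTconv 1 or LG_eTreg 1 or 3 (adjusted p 0.0501 to 0.0964). Under all 19 other settings 7 of the 13 calls held: Ifit1, Ifit3, Isg20, Oas1g, Mx1, Rsad2 and Ifi27l2a. Xaf1 was not called without LG_naive 1, 2 or 3, LG_eTconv 1, 2 or 3 or LG_eTreg 2 or 3 (adjusted p 0.0527 to 0.108), and Eif2ak2 without LG_naive 1, 2 or 3, LG_eTconv 2 or 3 or LG_eTreg 1 or 2 (adjusted p 0.0529 to 0.115). Mx2 fell short without LG_naive 1 or 2 or LG_eTreg 1 or 2 (adjusted p 0.0701 to 0.0886) and Rtp4 without LG_naive 2 or 3 or LG_eTreg 3 (adjusted p 0.0519 to 0.061). Cmpk2 was not called with the mean of its probe sets (adjusted p = 0.056), and Trex1 was called higher without LG_naive 1 (0.0453). These 3 comparisons share arrays pairwise, so their values stand side by side and are not independent of each other. Over the 3 comparisons 28 of the 38 genes were called at least once and 10 in none. The matching share of all genes was not counted, so these 2 counts are a description only.

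**Figure D2:**
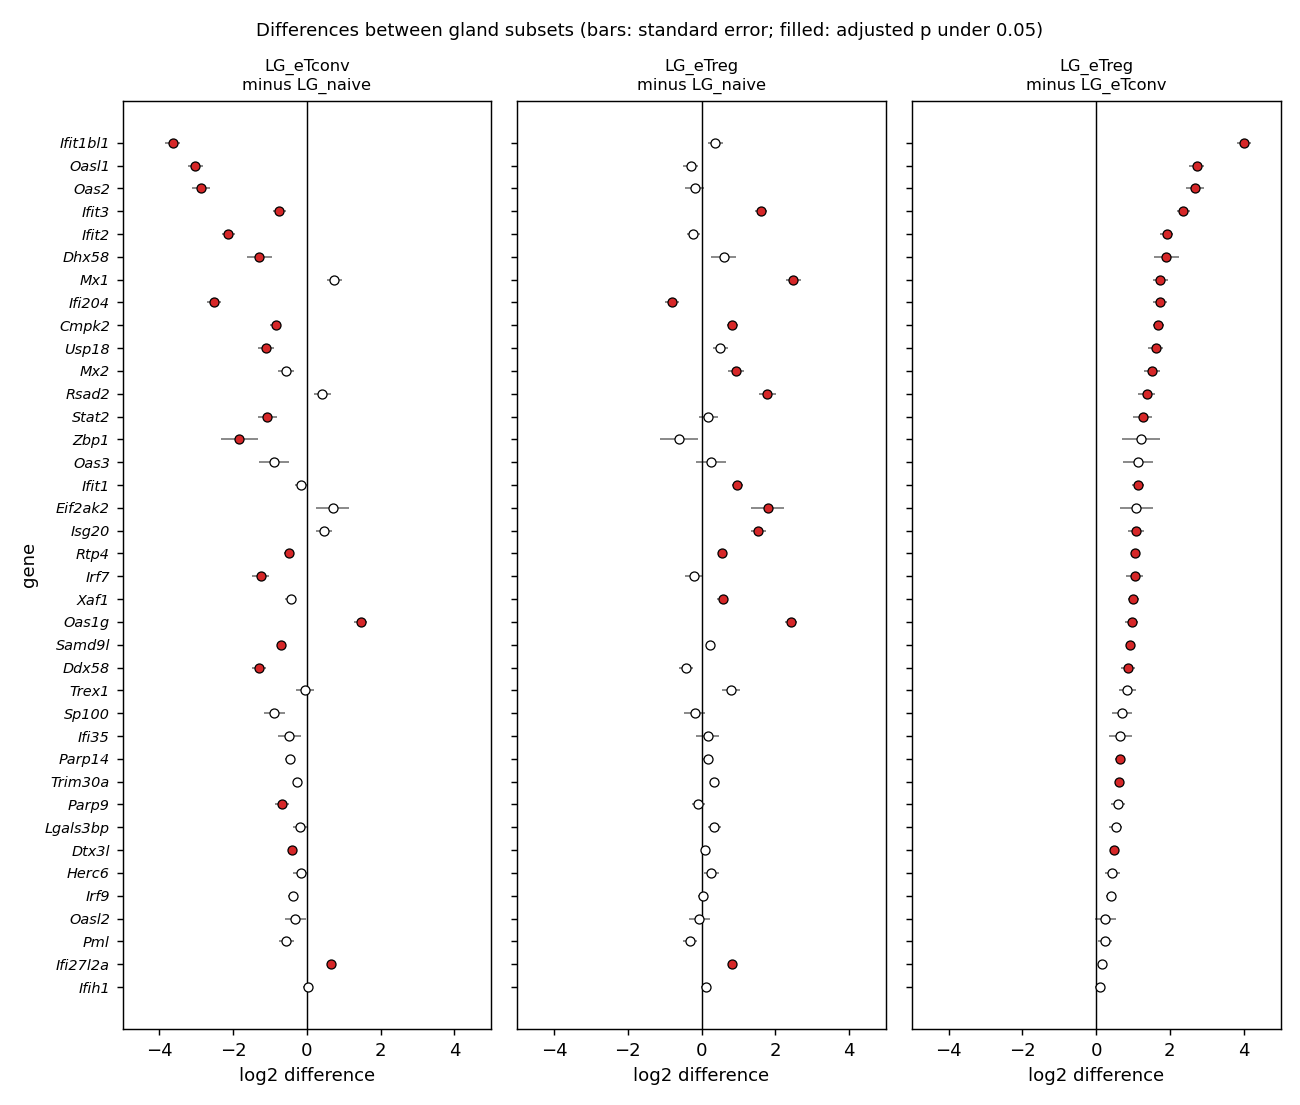
Log2 difference of each of the 38 interferon response genes in the 3 comparisons of gland subsets, with the standard error as a bar and filled points for genes called at an adjusted p under 0.05. The points of LG_eTreg minus LG_eTconv all lie to the right of 0, those of LG_eTconv minus LG_naive lie to the left for 31 of 38 genes, and those of LG_eTreg minus LG_naive to the right for 27 of 38.

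The median over the list was read on each array. The median signal of the 38 genes was 6.24 to 6.45 on the LG_naive arrays, 5.54 to 5.80 on the LG_eTconv arrays and 6.69 to 6.88 on the LG_eTreg arrays. These ranges did not overlap. The spleen arrays were lower, at 5.19 for Spl_CD4 and 5.25 for Spl_CD8, while all 17097 genes together had medians of 2.26 to 2.39 per array.

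The IFIT genes encode proteins that bind viral RNA and block its translation. Ifit1 and Ifit3 were higher in LG_eTreg than in both other subsets, and Ifit3 was also lower in LG_eTconv than in LG_naive. Ifit3 stood at 6.64, 6.33 and 6.43 on the LG_naive arrays, 5.72, 5.56 and 5.88 on the LG_eTconv arrays and 7.90, 7.93 and 8.43 on the LG_eTreg arrays. The 3 groups did not overlap, with LG_eTreg highest and LG_eTconv lowest. Ifit3 differed from LG_naive by 1.61 (SE 0.17, adjusted p = 0.000418) in LG_eTreg and by −0.75 (SE 0.17, adjusted p = 0.0205) in LG_eTconv. Ifit1, whose protein binds viral RNA that lacks a host cap, was at 6.82, 7.17 and 7.37 in LG_naive, 6.93, 6.80 and 7.15 in LG_eTconv and 8.03, 8.15 and 8.11 in LG_eTreg. It was higher in LG_eTreg than in LG_naive by 0.97 (SE 0.16, adjusted p = 0.00431) and than in LG_eTconv by 1.13 (SE 0.16, adjusted p = 0.00344), while the LG_naive and LG_eTconv arrays overlapped (difference −0.16, adjusted p = 0.613).

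Ifit1bl1 and Ifit2 were lower in LG_eTconv than in LG_naive by more than Ifit3 was, and neither was called between LG_eTreg and LG_naive. Ifit1bl1 was at 7.04, 7.85 and 7.69 in LG_naive, 3.82, 3.88 and 3.96 in LG_eTconv and 8.05, 7.78 and 7.86 in LG_eTreg. Every LG_eTconv array lay at least 3 below every other gland array, and the difference was −3.64 (SE 0.20, adjusted p = 9.64e-06) from LG_naive and 4.01 (SE 0.20, adjusted p = 1.20e-05) between LG_eTreg and LG_eTconv. LG_eTreg and LG_naive overlapped (difference 0.37, adjusted p = 0.333). Ifit2, whose protein joins IFIT complexes, was at 6.68, 6.80 and 6.88 in LG_naive, 4.37, 4.72 and 4.86 in LG_eTconv and 6.55, 6.85 and 6.29 in LG_eTreg. It was lower in LG_eTconv than in LG_naive by 4.40-fold, a difference of −2.14 (SE 0.18, adjusted p = 8.86e-05), and higher in LG_eTreg than in LG_eTconv by 1.92 (SE 0.18, adjusted p = 0.000366). All 4 IFIT genes lie on chromosome 19, with Ifit2, Ifit3 and Ifit1bl1 next to each other and 2 coding genes between Ifit1bl1 and Ifit1, in the RefSeq order. The IFIT genes are close relatives, and how far their probes take up each other's RNA was not tested.

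The other genes against viral RNA and translation were Isg20, Samd9l and Eif2ak2. Isg20, an exonuclease gene, was at 6.65, 6.06 and 6.15 in LG_naive, 7.04, 6.60 and 6.61 in LG_eTconv and 8.10, 7.77 and 7.62 in LG_eTreg. LG_eTreg lay above both, by 1.54 (SE 0.21, adjusted p = 0.00161) and 1.08 (SE 0.21, adjusted p = 0.0184), and the other two groups overlapped. Samd9l, which encodes a protein that restricts poxviruses and translation, was at 8.38, 8.47 and 8.32 in LG_naive, 7.67, 7.72 and 7.68 in LG_eTconv and 8.56, 8.73 and 8.54 in LG_eTreg. It was lower in LG_eTconv, with a difference from LG_naive of −0.70 (SE 0.10, adjusted p = 0.00154), and LG_eTreg differed from LG_naive by 0.22 (adjusted p = 0.213), which was not called. Eif2ak2 read 2.09, 2.30 and 0.54 in LG_eTreg against −0.30, −0.15 and 0.00 in LG_naive, so that its call rests on signals near the background limit.

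Oligoadenylate synthetases make a short RNA-like signal that activates RNase L, and OASL proteins are their relatives. Of 5 measured, 3 were higher in LG_eTreg than in LG_eTconv, where 2.94% of all genes were. Oasl1, which in mice restrains translation of Irf7, was at 4.14, 3.93 and 4.20 in LG_naive, 1.23, 0.66 and 1.31 in LG_eTconv, with 1 of the 3 arrays above background, and 3.51, 3.89 and 4.0 in LG_eTreg. The LG_eTconv arrays were the lowest in the gland. Oasl1 was lower there than in LG_naive, with a difference of −3.02 (SE 0.20, adjusted p = 2.66e-05), and higher in LG_eTreg than in LG_eTconv by 2.73 (SE 0.20, adjusted p = 0.0001). With values below background set to the highest array limit these differences were −2.39 and 2.10. Oas2 was at 6.18, 5.54 and 5.60 in LG_naive, 3.41, 2.75 and 2.55 in LG_eTconv and 5.72, 5.47 and 5.57 in LG_eTreg. The fall in LG_eTconv was 7.3-fold, with a difference of −2.87 (SE 0.25, adjusted p = 0.000113), and LG_eTreg lay above LG_eTconv by 2.68 (SE 0.25, adjusted p = 0.000379).

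Oas1g went the other way. Its signal was 4.16, 4.11 and 4.48 in LG_naive, 5.78, 5.45 and 5.90 in LG_eTconv and 6.83, 6.42 and 6.80 in LG_eTreg, with no overlap between groups. It was higher than in LG_naive by 1.46 (SE 0.17, adjusted p = 0.000682) in LG_eTconv and by 2.43 (SE 0.17, adjusted p = 5.27e-05) in LG_eTreg. Oas3 was at 6.20 ± 0.21 (SD, n = 3), 5.31 ± 0.83 and 6.45 ± 0.50, with LG_eTconv 1 at 4.40 far under the other gland arrays, and was not called. Oasl2 was at 5.03 ± 0.35, 4.71 ± 0.39 and 4.96 ± 0.43, with overlap in every comparison. Oas2 and Oas3 are neighbours on chromosome 5 with 4 coding genes between Oas3 and Oas1g, and Oasl2 and Oasl1 are neighbours on the same chromosome. The Oas1 genes of the mouse are near-identical copies, and the Oas1g probe set may take up RNA of others.

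**Figure D3:**
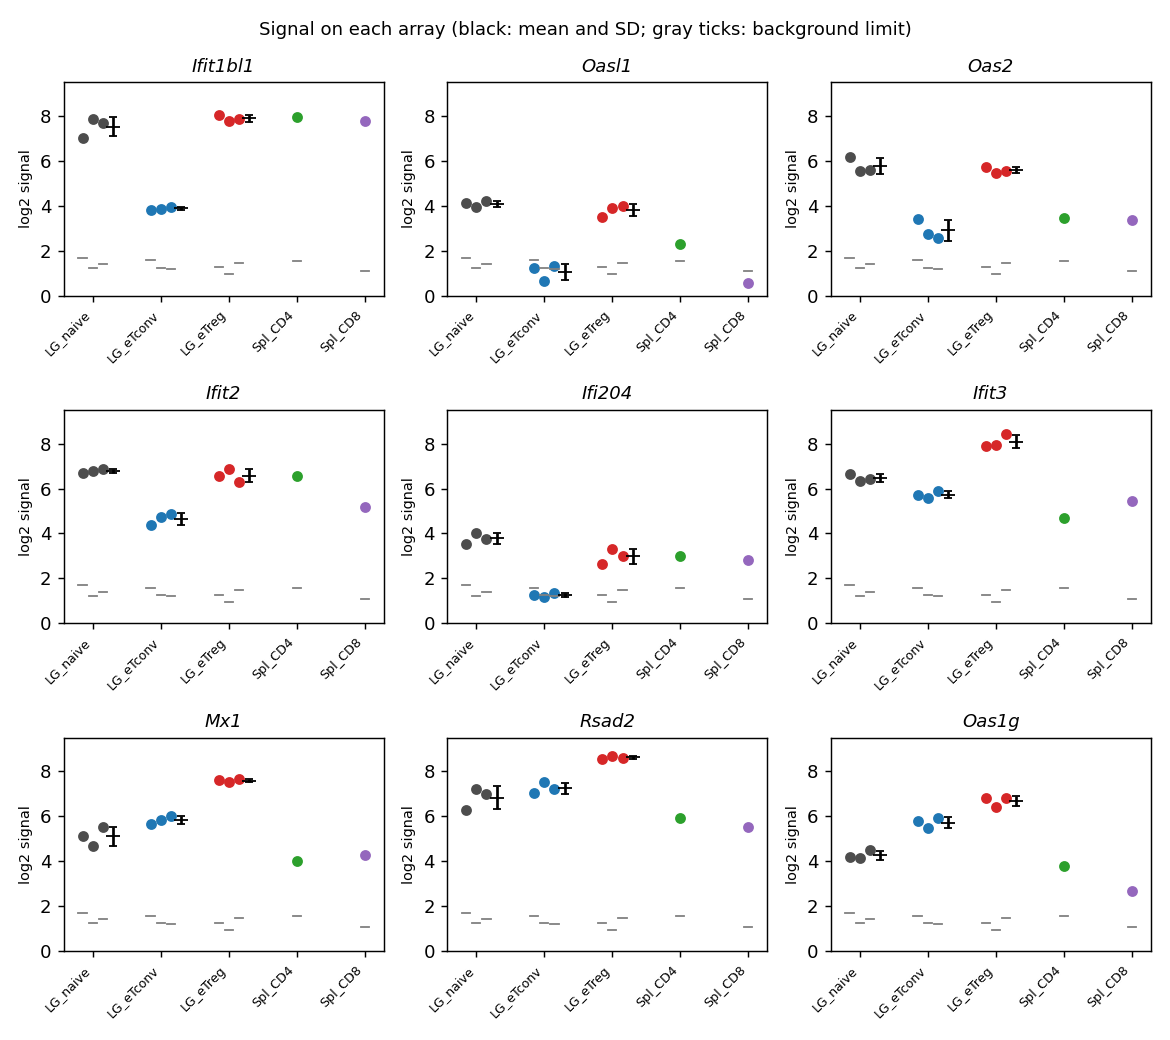
Log2 signal of 9 interferon response genes on every array, with points for arrays, black marks for the mean and SD of the 3 arrays of a gland group, and gray ticks for each array's background limit. Ifit1bl1, Oasl1, Oas2, Ifit2 and Ifi204 are low in LG_eTconv, whereas Ifit3, Mx1, Rsad2 and Oas1g are highest in LG_eTreg.

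Dynamin-like GTPases and membrane or nucleotide effectors were the role whose 5 measured genes were all higher in LG_eTreg than in both other subsets, though the calls of Mx1, Mx2, Rtp4 and Cmpk2 each ended under at least 1 setting named above. Of all genes, 6.20% were higher in LG_eTreg than in LG_naive and 2.94% higher than in LG_eTconv. Mx1, a GTPase that traps viral nucleocapsids, was at 5.10, 4.65 and 5.54 in LG_naive, 5.66, 5.84 and 6.03 in LG_eTconv and 7.62, 7.50 and 7.64 in LG_eTreg. All LG_eTreg arrays lay above all others, by 2.49 (SE 0.21, adjusted p = 0.000119) over LG_naive and 1.74 (SE 0.21, adjusted p = 0.00167) over LG_eTconv. LG_eTconv did not overlap with LG_naive either, at a difference of 0.74 (adjusted p = 0.0521) that was not called. Mx2, the second Mx GTPase gene, was at 3.42, 3.14 and 3.84 in LG_naive, 2.56, 3.16 and 2.94 in LG_eTconv and 4.39, 4.60 and 4.22 in LG_eTreg. It was higher in LG_eTreg by 0.94 (SE 0.22, adjusted p = 0.0263) and 1.52 (SE 0.22, adjusted p = 0.00434).

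Rsad2, which encodes viperin, an enzyme that makes a chain-ending nucleotide, was at 6.27, 7.20 and 7.01 in LG_naive, 7.04, 7.51 and 7.19 in LG_eTconv and 8.55, 8.69 and 8.60 in LG_eTreg. LG_eTreg was higher by 1.79 (SE 0.24, adjusted p = 0.00148) and 1.37 (SE 0.24, adjusted p = 0.0111), and LG_naive and LG_eTconv overlapped. Cmpk2, a mitochondrial nucleotide kinase gene and the neighbour of Rsad2 on chromosome 12, was at 4.52, 4.41 and 4.12 in LG_naive, 3.58, 3.44 and 3.49 in LG_eTconv and 5.10, 5.45 and 5.02 in LG_eTreg. Its groups were fully apart, with a difference from LG_naive of −0.85 (SE 0.15, adjusted p = 0.00644) in LG_eTconv and of 0.84 (SE 0.15, adjusted p = 0.008) in LG_eTreg. The second probe set of Cmpk2 differed by 0.06, 0.19 and 0.13 in the 3 comparisons and was called in none. Rtp4, a receptor transporter induced by interferon, was at 7.38 ± 0.03 in LG_naive, 6.88 ± 0.19 in LG_eTconv and 7.94 ± 0.11 in LG_eTreg, with differences of −0.50 (adjusted p = 0.0285), 0.56 (adjusted p = 0.0185) and, for LG_eTreg minus LG_eTconv, 1.06 (adjusted p = 0.00125).

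The ISG15 and ADP-ribosylation system tags proteins during the response. It had 3 of 5 measured genes lower in LG_eTconv than in LG_naive, where 7.02% of all genes were. Between LG_eTreg and LG_naive 0 of the 5 were called by limma, where 6.20% of all genes were higher and 5.47% lower. Of the 5, 1, Usp18, was higher at an unadjusted p under 0.05, where 1932 of all 17097 genes were. Usp18, the protease that removes ISG15 and blocks the interferon receptor, was at 5.88, 6.50 and 6.65 in LG_naive, 5.32, 4.98 and 5.42 in LG_eTconv and 6.78, 6.77 and 7.0 in LG_eTreg. Every LG_eTconv array lay under every other gland array. The difference was −1.11 (SE 0.21, adjusted p = 0.00874) from LG_naive and 1.61 (SE 0.21, adjusted p = 0.0026) between the effector subsets. Parp9 and Dtx3l, whose proteins form a complex, and Parp14 are neighbours on chromosome 16. Parp9 was at 7.24 ± 0.09, 6.56 ± 0.29 and 7.16 ± 0.28 in LG_naive, LG_eTconv and LG_eTreg, and differed by −0.68 (adjusted p = 0.043) in LG_eTconv. Dtx3l was at 9.04 ± 0.09, 8.63 ± 0.05 and 9.13 ± 0.12, with differences of −0.41 (adjusted p = 0.0317) in LG_eTconv and 0.49 (adjusted p = 0.0267) between the effector subsets. Parp14 was at 8.52 ± 0.05, 8.05 ± 0.24 and 8.70 ± 0.13, and LG_eTreg exceeded LG_eTconv by 0.65 (adjusted p = 0.0293). These 3 neighbours moved by less than 2-fold. Herc6, the mouse ligase for ISG15, was not called and overlapped in every comparison (5.77 ± 0.10, 5.60 ± 0.29 and 6.04 ± 0.33).

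Among the transcription factors, Irf7 and Stat2 were lower in LG_eTconv. Irf7, the factor that amplifies interferon alpha production, was at 6.96, 6.42 and 6.52 in LG_naive, 5.45, 5.25 and 5.42 in LG_eTconv and 6.17, 6.10 and 6.97 in LG_eTreg. The LG_eTconv values lay under those of all other gland arrays, with a difference of −1.26 (SE 0.24, adjusted p = 0.00935) from LG_naive and 1.04 (SE 0.24, adjusted p = 0.0446) between LG_eTreg and LG_eTconv. Stat2 was at 4.50, 3.60 and 3.95 in LG_naive, 2.65, 2.84 and 3.34 in LG_eTconv and 4.05, 4.24 and 4.33 in LG_eTreg. It was lower in LG_eTconv, with a difference from LG_naive of −1.07 (SE 0.25, adjusted p = 0.0238), and LG_eTreg exceeded LG_eTconv by 1.26 (SE 0.25, adjusted p = 0.0221). Irf9, the DNA-binding partner of STAT2, was at 6.83 ± 0.13, 6.46 ± 0.11 and 6.87 ± 0.21 and was not called. Between LG_eTreg and LG_naive 0 of the 3 were called by limma, with 0 at an unadjusted p under 0.05. At that unadjusted p, 1932 of all 17097 genes were higher and 2000 lower. Of all genes, 6.20% were called higher there and 5.47% lower.

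Sensors of foreign nucleic acid had 4 of 6 genes lower in LG_eTconv than in LG_naive, where 7.02% of all genes were. Ddx58, which encodes the RNA sensor RIG-I, was at 6.31, 6.15 and 6.31 in LG_naive, 5.12, 4.59 and 5.15 in LG_eTconv and 5.83, 5.56 and 6.09 in LG_eTreg, and LG_eTconv differed from LG_naive by −1.30 (SE 0.19, adjusted p = 0.002). Its second bright probe set differed by −1.36 there. Dhx58, the gene of the related regulator LGP2, was at 4.11, 3.99 and 4.28 in LG_naive, 2.88, 2.04 and 3.58 in LG_eTconv and 4.54, 4.64 and 5.01 in LG_eTreg. LG_eTconv was the lowest and most spread group, with differences of −1.29 (SE 0.34, adjusted p = 0.039) and, for LG_eTreg minus LG_eTconv, 1.90 (SE 0.34, adjusted p = 0.0133). Ifih1, which encodes MDA5, the third RNA sensor of this family, was not called, at 6.68 ± 0.10, 6.70 ± 0.11 and 6.80 ± 0.21, and its groups overlapped.

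The DNA sensors varied among themselves. Ifi204 was at 3.55, 4.04 and 3.76 in LG_naive, 1.27, 1.15 and 1.35 in LG_eTconv, with 1 of 3 arrays above background, and 2.65, 3.31 and 3.01 in LG_eTreg. No groups overlapped, and Ifi204 differed from LG_naive by −2.52 (SE 0.19, adjusted p = 5.23e-05) in LG_eTconv and by −0.79 (SE 0.19, adjusted p = 0.0302) in LG_eTreg. With values below background set to the highest array limit the first difference was −2.08. The p200 family holds close paralogs whose RNA this probe set may share. Zbp1, a sensor of Z-form nucleic acid, was at 7.92, 7.11 and 7.59 in LG_naive, 5.10, 5.75 and 6.29 in LG_eTconv and 5.81, 7.14 and 7.82 in LG_eTreg, with a spread in both effector groups wider than in LG_naive. Its fall in LG_eTconv (−1.83, SE 0.51, adjusted p = 0.0495) was not shared by its second probe set, which differed by −0.11 there. That second probe set was higher in LG_eTreg than in LG_naive by 0.63 (adjusted p over all probe sets = 0.0316) and than in LG_eTconv by 0.74 (0.027). Trex1, a nuclease that clears cytosolic DNA, was at 4.09 ± 0.32, 4.03 ± 0.23 and 4.88 ± 0.39 and was not called.

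The other induced genes moved less. Ifi27l2a was at 8.55, 8.60 and 8.56 in LG_naive, 9.28, 9.16 and 9.26 in LG_eTconv and 9.49, 9.39 and 9.32 in LG_eTreg. Both effector subsets lay above LG_naive, by 0.66 (SE 0.09, adjusted p = 0.00168) and 0.83 (SE 0.09, adjusted p = 0.000576), and differed from each other by 0.17 (adjusted p = 0.449). Xaf1, an interferon-induced gene linked to cell death, was at 6.75, 6.62 and 6.67 in LG_naive, 6.32, 6.24 and 6.15 in LG_eTconv and 6.94, 7.32 and 7.48 in LG_eTreg. It was higher in LG_eTreg than in LG_eTconv by 1.01 (SE 0.14, adjusted p = 0.00395) and than in LG_naive by 0.57 (SE 0.14, adjusted p = 0.0363). Trim30a, a regulator of inflammatory signalling, was at 8.22 ± 0.09, 7.94 ± 0.05 and 8.57 ± 0.16, and LG_eTreg exceeded LG_eTconv by 0.62 (adjusted p = 0.0131). Ifi35, Lgals3bp and the nuclear body genes Sp100 and Pml were not called, with LG_eTconv minus LG_naive differences of −0.48, −0.18, −0.88 and −0.56.

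The interferon response genes of the gland were set beside T cells of the spleen, as values without a test because each spleen group had 1 array. In LG_naive 18 of the 38 genes were higher than on Spl_CD4 and 0 lower, counting a log2 difference of at least 1 with all 3 LG_naive arrays on 1 side, where 4.67% of all genes were higher and 4.57% lower. The median difference was 0.90, and 0.00 over all genes, and 37 of the 38 differences were positive. Oas2 (2.31), Usp18 (2.27), Ifit1 (1.96), Oasl1 (1.79), Ifit3 (1.76) and Mx2 (1.70) differed most. Ifit1bl1 was the exception (−0.42), with 7.95 on Spl_CD4 and 7.76 on Spl_CD8, so that its low value belonged to LG_eTconv among all 5 populations. Ifit2 on Spl_CD4, at 6.58, also lay close to its LG_naive values. Mx1 read 4.02 on Spl_CD4 and Rsad2 5.91, under all 9 gland arrays for both genes, and Oas1g read 3.79.

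Between the spleen arrays 0 of the 38 genes were higher and 6 lower on Spl_CD8 by at least 1, where 3.75% of all genes were higher and 4.50% lower. The median difference was 0.01. The 6 were Oasl1 (−1.75, below background on Spl_CD8), Ifit2 (−1.39), Ifi27l2a (−1.33), Isg20 (−1.32), Oasl2 (−1.26) and Oas1g (−1.12). Dhx58, at 0.97, was the member with the largest difference in the other direction. The spleen arrays also carried markers of B cells, with a summed linear signal of 491 and 785 against 27.3 to 74.4 on the gland arrays, and of neutrophils (146 and 277 against 6.05 to 7.88). Other lists were higher in LG_naive than on Spl_CD4, with plasmacytoid dendritic cell markers at 816 to 828 against 238 and gland epithelium markers at 174 to 411 against 31.7. Conventional dendritic cell markers were at 1180 to 1740 against 1790. The part of these cells in the values was not tested.

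Genes that make, receive or pass on the interferon signal were read from lists apart from the members, with 58 of 70 genes measured. In LG_eTconv against LG_naive 3 were higher and 15 lower, where 6.45% and 7.02% of all genes were. In LG_eTreg against LG_naive 6 were higher and 7 lower, beside 6.20% and 5.47% of all genes, and in LG_eTreg against LG_eTconv 8 and 2, beside 2.94% and 2.76%. The 3 higher in LG_eTconv and the 2 lower in LG_eTreg than in LG_eTconv are close to the shares of all genes. The 6 became 3 without LG_eTreg 1 or 2, and the 2 became 1 without any single array other than LG_naive 1. Of 15 type I interferon genes 10 were measured, and 9 of them, Ifnb1 among them, were at or below background on all gland arrays. Ifna1 was above it, at 2.87 ± 0.13, 2.54 ± 0.01 and 2.39 ± 0.19, and was lower in LG_eTreg than in LG_naive (−0.48, adjusted p = 0.0373). That call ended without LG_naive 1 or 3, LG_eTconv 1, 2 or 3 or LG_eTreg 1, 2 or 3 (adjusted p 0.0545 to 0.119). Its copies are near-identical, so the probe set may not tell them apart.

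The receptor chains differed. Ifnar2 was at 5.72, 5.42 and 5.55 in LG_naive, 5.79, 5.25 and 5.61 in LG_eTconv and 6.17, 6.48 and 6.31 in LG_eTreg, higher in LG_eTreg by 0.76 (adjusted p = 0.0178) and 0.77 (adjusted p = 0.0275). The first call ended without LG_naive 2 or 3 or LG_eTreg 2 (adjusted p 0.0589 to 0.0647) and the second without LG_naive 3, LG_eTconv 2 or 3 or LG_eTreg 2 or 3 (adjusted p 0.0526 to 0.0982). Ifnar1 was at 5.47 ± 0.14, 5.06 ± 0.16 and 5.33 ± 0.19 and was not called. Of 8 measured receptor and signalling genes, Tyk2 was higher in LG_eTreg than in LG_naive (0.72, adjusted p = 0.0201), and Ptpn11, the gene of the phosphatase SHP-2, was higher in LG_eTconv (1.63, adjusted p = 2.40e-05) and in LG_eTreg (0.52, adjusted p = 0.0154) and lower in LG_eTreg than in LG_eTconv (−1.12, adjusted p = 0.000468). Tyk2 was not called without LG_naive 3 or LG_eTreg 1 (adjusted p 0.0706 to 0.0706), nor Ptpn11 in LG_eTreg against LG_naive without LG_eTreg 1 or 2 (adjusted p 0.051 to 0.055). Socs1, an inhibitor of JAK kinases, was at 1.60 ± 0.18, 1.59 ± 0.17 and 1.48 ± 0.24, near background, and was not called.

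Other regulators and sensors showed the same low values in LG_eTconv for some genes. Irf1 was at 9.24, 9.06 and 9.07 in LG_naive, 8.36, 8.22 and 8.29 in LG_eTconv and 8.80, 8.90 and 8.85 in LG_eTreg, lower in LG_eTconv (−0.84, adjusted p = 0.000589) and higher in LG_eTreg than in LG_eTconv (0.56, adjusted p = 0.0111). Irf8, a factor of myeloid cells, B cells and some T cells, was at 6.26 ± 0.18, 3.52 ± 0.09 and 5.23 ± 0.14, lower than in LG_naive in both effector subsets (−2.74, adjusted p = 4.20e-06, and −1.03, adjusted p = 0.000982) and higher in LG_eTreg than in LG_eTconv (1.71, adjusted p = 0.0001). Cgas, the DNA sensor that acts through STING, was at 5.76, 4.96 and 5.68 in LG_naive, 3.05, 4.23 and 3.92 in LG_eTconv and 5.91, 5.95 and 5.56 in LG_eTreg. It was the 1 gene of 11 measured sensors, adaptors and kinases called between the effector subsets (2.08, adjusted p = 0.00663). For a list of 11 that count is close to the shares of all genes, 2.94% higher and 2.76% lower. Cgas was also lower in LG_eTconv than in LG_naive (−1.74, adjusted p = 0.0079). Ikbke, a kinase that activates IRF factors, was lower than in LG_naive in both effector subsets (−1.28, adjusted p = 0.00104, and −1.27, adjusted p = 0.00126). Irf5 was higher in LG_eTreg than in LG_naive (0.59, adjusted p = 0.0273), a call that ended without LG_eTreg 1, 2 or 3 (adjusted p 0.0509 to 0.0851).

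The receptor for interferon gamma was low in LG_eTconv as well. Ifngr1, its ligand-binding chain, was at 7.27, 7.03 and 7.27 in LG_naive, 3.98, 4.14 and 3.48 in LG_eTconv and 7.54, 7.76 and 7.74 in LG_eTreg. No LG_eTconv array came near the others, with differences of −3.32 (SE 0.17, adjusted p = 7.58e-06) and, for LG_eTreg minus LG_eTconv, 3.81 (SE 0.17, adjusted p = 8.80e-06). Ifngr2, the signalling chain, was lower in both effector subsets (−1.37, adjusted p = 0.00733, and −1.44, adjusted p = 0.00661). Jak2 was higher in LG_eTconv (0.69, adjusted p = 0.00137) and lower in LG_eTreg than in LG_eTconv (−0.44, adjusted p = 0.0283), and Il10rb was higher in LG_eTreg than in LG_eTconv (0.96, adjusted p = 0.0285). Between the effector subsets Jak2 was not called without LG_naive 2 or 3, LG_eTconv 1, 2 or 3 or LG_eTreg 1, 2 or 3 (adjusted p 0.0511 to 0.0982), nor Il10rb without LG_naive 3, LG_eTconv 1 or 2 or LG_eTreg 2 or 3 (adjusted p 0.0538 to 0.0864). Of 18 measured interferon gamma induced genes 9 were lower and 1 higher in LG_eTconv, where 7.02% and 6.45% of all genes were, with Cxcl9, a chemokine gene (−1.98, adjusted p = 0.0393), and Irgm2 (−1.83, adjusted p = 0.00511) the lowest and the chemokine Cxcl10 higher (2.83, adjusted p = 0.000154). In LG_eTreg against LG_naive 2 were higher, Cxcl10 (3.02, adjusted p = 0.000129) and the guanylate-binding protein gene Gbp3 (1.14, adjusted p = 0.00302), and 3 were lower, Gbp2 (−1.09, adjusted p = 0.0121), Tgtp1 (−0.59, adjusted p = 0.0128) and Igtp (−0.53, adjusted p = 0.0395). Of all genes, 6.20% were higher there and 5.47% lower. Between the effector subsets Gbp3 (1.79, adjusted p = 0.000468) and Gbp7 (0.81, adjusted p = 0.0011) were higher in LG_eTreg (5 genes without LG_eTreg 1) and 0 were lower by limma. Of all genes, 2.94% were higher and 2.76% lower. At an unadjusted p under 0.05, 8 of the 18 were higher and 0 lower, where 1507 and 1263 of all 17097 genes were. In all, 14 of the 18 differences were positive. Cxcl9 in LG_eTconv was not called without LG_naive 2 or 3, LG_eTconv 1, 2 or 3 or LG_eTreg 2 (adjusted p 0.0621 to 0.123), nor Igtp in LG_eTreg against LG_naive without LG_naive 2 or 3, LG_eTconv 2 or LG_eTreg 1, 2 or 3 (adjusted p 0.0662 to 0.121). The median over this list between the effector subsets was 0.27, against 1.05 over the members.

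Markers of other cell types moved with some of these groups. Plasmacytoid dendritic cells are strong producers of interferon, and their 9 measured markers had a summed linear signal of 816 to 828 on the LG_naive arrays, 231 to 283 on the LG_eTconv arrays and 170 to 193 on the LG_eTreg arrays. In both effector subsets 8 were lower than in LG_naive, where 7.02% of all genes were in LG_eTconv and 5.47% in LG_eTreg. The largest falls were of Lair1 (−5.09 and −5.12), Klra17 in LG_eTconv (−4.94) and Ccr9 in LG_eTreg (−5.30). The remaining marker, Pacsin1, was higher in LG_eTconv (1.33, adjusted p = 0.000995). Siglech, the most specific of this list, had no probe set under its symbol, and T cells are known to express Ccr9, Lair1, Tcf4 and Irf8 to some extent. The sums of this list were lowest in LG_eTreg. Compared with LG_eTconv, 4 of these markers were lower in LG_eTreg and Irf8 was higher, where 2.76% and 2.94% of all genes were. The 4 became 2 without LG_eTconv 1, 2 or 3 or LG_eTreg 2 or 3. Monocyte and macrophage markers (14 measured) summed to 1040 to 1330, 675 to 699 and 716 to 856 in LG_naive, LG_eTconv and LG_eTreg, with Csf1r and Itgam at or below background on every gland array. Between the effector subsets 1 of the 14 was called, Cd14 (1.66, adjusted p = 0.00579), and 0 of 10 conventional dendritic cell markers. Both counts are close to the shares of all genes, 2.94% higher and 2.76% lower. The conventional dendritic cell sums were 1180 to 1740 in LG_naive, 433 to 520 in LG_eTconv and 426 to 595 in LG_eTreg. Lacrimal gland epithelium markers (8 measured) summed to 174 to 411, 63.5 to 70.1 and 127 to 192, and 2 were higher in LG_eTreg than in LG_eTconv, Epcam (3.06, adjusted p = 0.000645) and Krt18 (1.42, adjusted p = 0.0311), of which Krt18 was not called without LG_naive 3, LG_eTconv 1, 2 or 3 or LG_eTreg 2 or 3 (adjusted p 0.0534 to 0.11). B cell markers (6 measured) summed to 57.7 to 73.8, 58.7 to 74.4 and 27.3 to 32, and CD8 T and natural killer cell markers (9 measured) to 191 to 199, 134 to 167 and 88.2 to 114. Of these 9, Cd8a was higher in LG_eTconv than in LG_naive (1.56, adjusted p = 0.00161), where 2 others were lower. Cd8a was also lower in LG_eTreg than in LG_eTconv (−1.31, adjusted p = 0.00858), where 1 other was higher. The 5 measured neutrophil markers were at or below background on all gland arrays. The part of these cells in the differences of the interferon response genes was not tested.

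**Figure D4:**
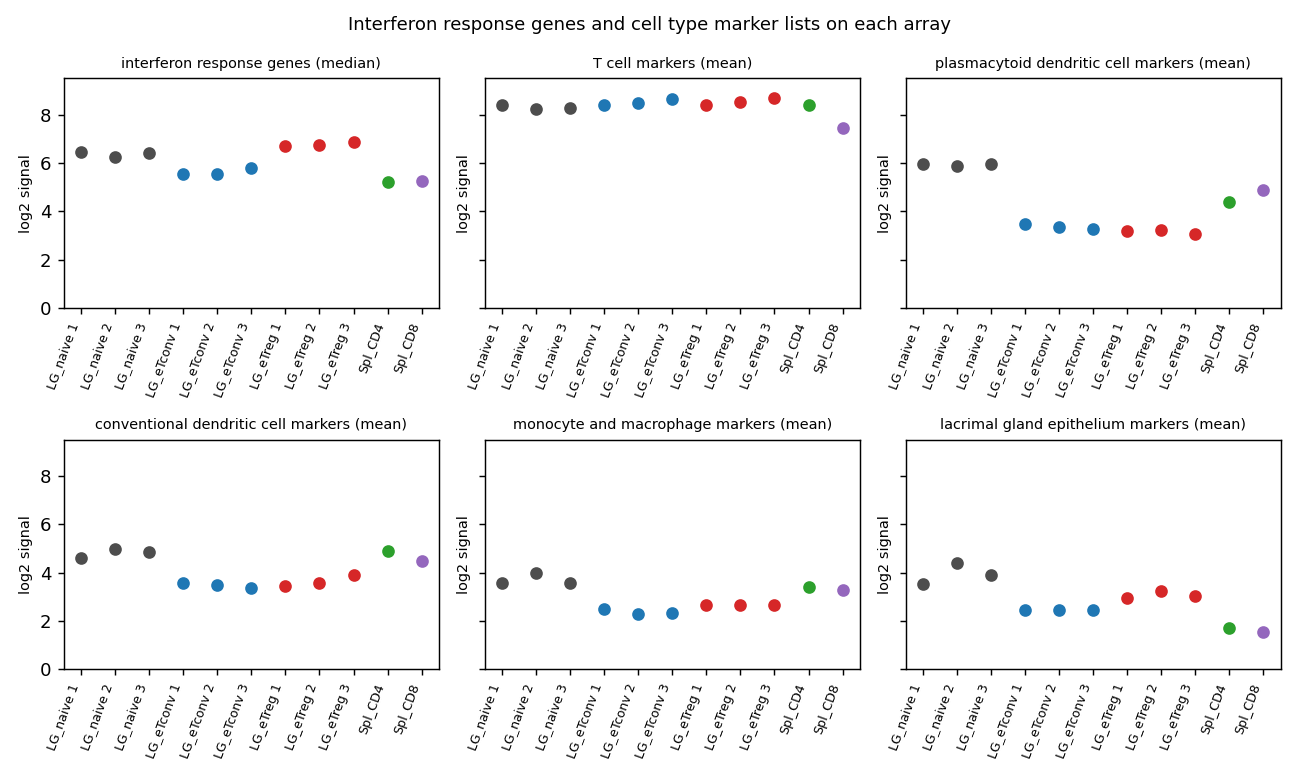
Log2 signal on each of the 11 arrays, as the median of the 38 interferon response genes and as the mean of 5 marker lists. The members are lowest on the LG_eTconv arrays within the gland and highest on the LG_eTreg arrays. The plasmacytoid dendritic cell, conventional dendritic cell and monocyte and macrophage lists are highest on the LG_naive arrays within the gland.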

How the data were processed

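The 42 genes, their roles and the other gene lists were chosen with earlier results of these data known. RNA of sorted cells was amplified with NuGEN Ovation and biotin-labelled, per the labels, which give 1 unassigned sample a lower RNA integrity number. The deposited log2 signals were produced by the authors with RMA and Partek (versions not given), per the submitters' processing notes. That the logarithm has base 2 is taken from RMA's usual output. RMA sets all arrays to a shared distribution, so a shift of all genes would not show.

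Of 45141 probe sets, 104 controls were left out, and 28898 had exactly 1 gene symbol, 551 several and 15588 none in the annotation used. The brightest probe set over the 9 gland arrays gave 17097 genes, 7180 of them with more than 1. No dim gene was filtered out. limma 3.58.1 in R 4.3.3 fitted a mean per gland group (6 residual degrees of freedom) with empirical Bayes moderation, two-sided, with Benjamini-Hochberg adjustment over all genes. The script was tested on simulated data. The small number of arrays limits the precision. An at-least fold was set against the array's background limit. Members called in any comparison are given with their values, with up to 3 called genes per pathway list and comparison, except that all 5 interferon gamma induced genes called in LG_eTreg against LG_naive are named, 2 of them chosen after their values were seen. From the pathway lists 1 gene was left out and is not reported here. Alternatives covered probe set choice, dim genes, normalization, the fit, a replicate block and left-out arrays. Same-numbered arrays deviated with correlations from −0.10 to 0.28, and differently numbered ones from −0.23 to 0.19. Between LG_eTconv and LG_eTreg the same-numbered pairs stood at 0.28, 0.08 and 0.17, above every differently numbered pair (−0.23 to 0.02). Pairs with LG_naive showed no such order. Whether same-numbered arrays share a source was not tested. The main fit did not use numbers as pairs, since the labels tie them to no mouse. Promoters come from the RefSeq table of GRCm38.p6.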

Additional observations from a re-analysis of the deposited data

How the results depend on the processing

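Over 19 other settings no called difference of a member changed direction, and 0 members were lower in LG_eTreg than in LG_eTconv in any of them by limma. The 24 members higher there ranged from 16 to 24. Members lower in LG_eTconv than in LG_naive (17) ranged from 10 to 17 with 1 array left out. Members higher there were 2, and 4 with a replicate block, a fit whose numbers the labels do not tie to mice. The 1 member lower in LG_eTreg than in LG_naive, Ifi204, ranged from 0 to 1 with 1 array left out, and the count was 0 with values below background set to the limit, with a trended and robust eBayes, with only the 2 groups compared and with LG_naive 1, LG_eTconv 1 and LG_eTreg 3 left out together. With the replicate block 1 pathway gene was lower in LG_eTreg than in LG_eTconv, against 2 without it. The other counts stayed within 1.5 times. The median difference over the 38 genes moved by less than the median of these genes' residual SD between arrays of a group. Where a fit left an arm with 2 arrays, the spread was shared with the other groups. Signals near the background limit (Eif2ak2, Oasl1 and Ifi204 in LG_eTconv) set how far those differences can be read.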

Other observations

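Members on the same chromosome had unlike values in some pairs. In LG_eTconv against LG_naive, Oas2 differed by −2.87 and Oas1g, with Oas3 and 4 further coding genes between them, by 1.46. Oasl1 differed by −3.02 and its neighbour Oasl2 by −0.32. On chromosome 19 Ifit1bl1 differed by −3.64 and Ifit1, 2 coding genes away, by −0.16. On chromosome 12 Cmpk2 by −0.85 and its neighbour Rsad2, a gene of another family, by 0.42. The differences within these pairs were not tested.

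Ifngr1 had the largest difference between LG_eTreg and LG_eTconv among the 58 measured pathway genes (3.81), low on the 3 LG_eTconv arrays (3.87) and higher in LG_naive (7.19), LG_eTreg (7.68), Spl_CD4 (5.99) and Spl_CD8 (6.09). It was singled out after its values were seen. Tlr7, an RNA sensor, was at 1.94 on Spl_CD4 and 5.21 on Spl_CD8, against 5.95, 5.26 and 4.83 in the gland groups, and was also singled out after its values were seen.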
